A study of Mus musculus with 6 samples.

Results

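The 10 genes described here encode water, potassium, cation and chloride channels, or channel-associated proteins, of the choroid plexus epithelium: Aqp1, Kcnj13, Kcne2, Kcnq1, Kcna1, Kcna3, Trpv4, Clic6, Clic3 and Clcn2. They were taken as the rows whose single gene symbol in the platform's probe annotation was one of these names, which gave all 10 genes of 18193 and 14 probe sets of 34945. The samples were choroid plexus epithelium from whole mouse brain, with 3 arrays described as RAG-/- on the B10.PL strain and 3 described as wild type B10.PL (WT). RAG1 and RAG2 together rearrange antigen receptor genes, and mice without either have no mature T or B cells. The labels state neither which of these was disrupted nor age, sex, treatment or pooling, so the p-values cover only array-to-array spread, part of which may be technical. For 1 pair of samples the descriptions say that they had been reversed and contradict the genotype in both titles. Genotypes below are those of the descriptions, and the reading by title, which moves WT replicate 1 into the RAG-/- group and RAG-/- replicate 1 into the WT group, is given beside them.

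The choroid plexus epithelium lines tufts of leaky vessels in the brain ventricles and secretes cerebrospinal fluid. Its sodium pump lies on the apical side, facing the fluid, and water follows the transported ions through water channels while potassium channels return the potassium that the pump takes up. Chloride leaves the cell towards the fluid through apical cotransporters and channels, and stretch- or volume-sensitive cation channels can adjust the rate.

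Every value is 1 brightness per probe set and array, so levels of different genes cannot be compared as amounts of RNA. A lower value of an epithelial gene can come from fewer epithelial cells or from less RNA per cell, which cannot be told apart in these bulk samples. The tissue label was set against markers of cell types. All 8 of the epithelium markers with a probe set, among them the thyroid hormone carrier Ttr, passed the filter on dim probe sets, and their mean log2 value lay between 12.30 and 13.23 in RAG-/- arrays and between 12.80 and 13.07 in WT arrays. Markers of neurons (8 of 8), astrocytes (6 of 6) and oligodendrocytes (7 of 7) passed it too. Passing the filter therefore does not tell epithelium from mixed brain tissue. Of the 6 T and B cell markers with a probe set, only Cd8a passed the filter. RAG-/- replicate 2 was unlike the rest: the leading principal component, with 48.4% of the variance, placed it at 106 and all others from -69.3 to 31.2. Arrays also resembled each other within the 3 pairs that share a code in their titles. RAG-/- replicates 1 and 3 carried Y-linked signal, with Eif2s3y at log2 values of 9.47 and 9.76 there and between 4.19 and 5.76 in the other 4 arrays. Rag1, a dim probe set, was at 4.60, 6.92 and 6.31 in RAG-/- replicates 1, 2 and 3 and 6.54, 4.16 and 4.35 in WT replicates 1, 2 and 3. By description these groups overlapped, whereas by title they did not, as for 4.73% of the 13537 genes past the filter. The 3 arrays titled RAG were between 6.31 and 6.92 and the 3 titled WT between 4.16 and 4.60. The Rag1 probe set, at the 27.1 percentile by mean, was itself below the filter. Where this probe set lies relative to any disrupted part is not known here, so directions refer to libraries as labelled.

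The members spanned nearly the whole range of brightness, in an order that was much the same on every array. Clic6, Kcnj13 and Kcne2 lay at or above the 97.8 percentile of their array's probe sets on all 6 arrays, and Aqp1 lay between the 90.6 and 97.7 percentiles. Trpv4 (79.4 to 91.1), Kcna1 (73.3 to 89.9 at its brightest probe set) and Clic3 (63.7 to 77.6) came next, and neighbours in this order overlapped. Clcn2 ran from the 40.3 to the 64.7 percentile and Kcnq1 from the 31.6 to the 53.3. Kcna3 ran from the 23.6 to the 38.3 percentile. It was the only one of the 10 genes whose brightest probe set fell in the lowest 40% by mean, which were left out of the main test, so 9 genes and 12 of their 14 probe sets were tested there. The plot of brightness ranks shows all 14 probe sets.

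**Figure D1:**
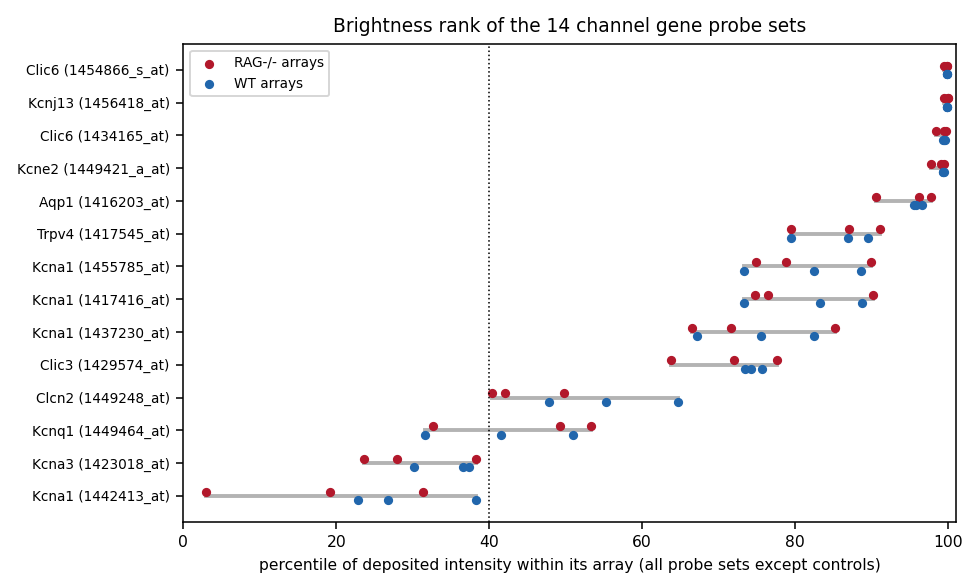
Each row is a probe set of a channel gene, points are the 3 RAG-/- arrays (red, upper) and 3 WT arrays (blue, lower), the x axis is the percentile of the deposited intensity within its array, and the dotted line marks 40%. Clic6, Kcnj13 and Kcne2 stay at or above the 97.8 percentile on every array, whereas Kcna3 and 1 of the 4 probe sets of Kcna1 lie below 40% on every array.

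Water channel. Aqp1 forms the apical water pore of this epithelium, and mice without it make less cerebrospinal fluid. Its log2 values, after addition of 16 to the deposited intensity and quantile normalization, were 12.77, 10.84 and 12.15 in RAG-/- replicates 1, 2 and 3 and 12.03, 12.29 and 11.93 in WT replicates 1, 2 and 3. RAG-/- arrays held both the highest and the lowest value and enclosed all WT arrays. As deposited, the intensities were 7130, 1850 and 4795 in the RAG-/- arrays and 4127, 4909 and 3997 in the WT arrays. The spread within RAG-/- (SD 0.99, n = 3) was wider than within WT (SD 0.19, n = 3), and the difference was -0.16 (95% interval -1.20 to 0.87, limma). Within pairs 1, 2 and 3, RAG-/- minus WT was 0.74, -1.45 and 0.23.

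Potassium channels of the epithelium. Kcnj13 encodes an inward rectifier of the apical membrane with little rectification and low single-channel conductance. Its log2 values were 14.76, 14 and 14.69 in RAG-/- replicates 1, 2 and 3 and 14.63, 14.51 and 14.56 in WT replicates 1, 2 and 3. RAG-/- replicates 1 and 3 were the highest of the 6 arrays and RAG-/- replicate 2 the lowest. The arrays with the highest Kcnj13 were also those with Y-linked signal, whose part in this order was not tested. The difference was -0.08 (95% interval -0.57 to 0.40, limma). So near the top of the brightness range quantile normalization leaves little room for differences, but the deposited intensities gave the same picture, at 27565, 14149 and 30295 in RAG-/- replicates 1, 2 and 3 and 22780, 22920 and 27276 in WT replicates 1, 2 and 3.

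Kcne2 encodes a single-pass accessory subunit that, in mouse choroid plexus, assembles with the pore-forming subunits KCNQ1 and KCNA3. Its log2 values were 13.93, 12.80 and 13.65 in RAG-/- replicates 1, 2 and 3 and 13.77, 14.01 and 13.75 in WT replicates 1, 2 and 3. RAG-/- replicate 2 was far below the other 5 arrays, which lay within 13.65 to 14.01. The difference was -0.38 (95% interval -1.03 to 0.27, limma), and -0.05 without RAG-/- replicate 2. Kcnq1, the pore-forming partner, had log2 values of 6.91, 6.65 and 5.81 in RAG-/- replicates 1, 2 and 3 and 6.75, 6.24 and 5.76 in WT replicates 1, 2 and 3. It did not share the drop of Kcne2 in RAG-/- replicate 2 and instead followed the pairs, with pair means of 6.83, 6.44 and 5.78. Within pairs 1, 2 and 3 RAG-/- minus WT was 0.16, 0.41 and 0.05, and the mean of 0.20 had a 95% interval of -0.77 to 1.18 (limma). Kcnq1 overlaps the long antisense transcript Kcnq1ot1 and 2 further transcripts in the gene table.

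Kcna3, a Shaker-related pore subunit of T cells and microglia that also pairs with KCNE2 in mouse choroid plexus, was dim throughout. Its log2 values were 5.57, 6.08 and 5.33 in RAG-/- replicates 1, 2 and 3 and 5.68, 6.04 and 6.0 in WT replicates 1, 2 and 3. The difference was -0.24 (95% interval -1.08 to 0.60, limma without the filter). The values spanned 0.75 over all arrays, from 5.33 to 6.08.

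Kcna1, the related subunit best known from axons, had the widest spread of the members. At its brightest probe set the log2 values were 8.85, 10.72 and 9.26 in RAG-/- replicates 1, 2 and 3 and 9.68, 10.52 and 8.68 in WT replicates 1, 2 and 3. Both arrays of pair 2 were at 10.52 or above and every other array was at or below 9.68. The values of pairs 1 and 3 interleaved. Its SD of 0.85 over the 6 arrays was larger than that of 90% of 13537 genes, where the median was 0.41. Of its 4 probe sets, the 3 brighter ones had the same order of pairs, with pair means of 9.26, 10.62 and 8.97 at the brightest, 9.40, 10.65 and 8.76 at the next and 8.46, 9.86 and 8.29 at the third. After centring, the brightest differed from these by a root mean square of 0.19 and 0.08. The fourth was dim, at the 23 percentile, and departed from the brightest by 1.03. The difference was -0.02 by description (95% interval -1.40 to 1.36, limma), and -0.83, 0.20 and 0.58 within pairs 1, 2 and 3. By title it was 0.54 (95% interval -0.77 to 1.85, limma), and 0.83, 0.20 and 0.58 within those pairs.

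Cation channel. Trpv4 forms a calcium-permeable channel opened by cell swelling, warmth and lipid ligands, found on the apical side of this epithelium. Its log2 values were 10.92, 9.34 and 10.27 in RAG-/- replicates 1, 2 and 3 and 10.26, 10.65 and 9.32 in WT replicates 1, 2 and 3. Unlike Aqp1 and Kcne2 it had a low array in each group, RAG-/- replicate 2 and WT replicate 3. The differences within pairs 1, 2 and 3 were 0.66, -1.31 and 0.95, and their mean of 0.10 had a 95% interval of -1.02 to 1.23 (limma).

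Chloride channels and channel-related proteins. Clic6 belongs to a family of soluble proteins that can insert into membranes, and its transcript is abundant in mouse choroid plexus. At its brightest probe set the log2 values were 14.55, 14.03 and 14.50 in RAG-/- replicates 1, 2 and 3 and 14.38, 14.50 and 14.51 in WT replicates 1, 2 and 3. RAG-/- replicate 2 was again the lowest array, and the other 5 lay within 14.38 to 14.55. This probe set is of the type that the array maker marks as shared between transcripts. The other Clic6 probe set had the same lowest array, at 13.98, 13.14 and 14.18 in the RAG-/- arrays and 13.74, 13.99 and 14.07 in the WT arrays. The differences were -0.10 (95% interval -0.50 to 0.29) and -0.16 (95% interval -0.79 to 0.46, limma). In pair 3 these probe sets differed in sign, at -0.01 and 0.11.

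Clic3, a smaller relative of Clic6, had log2 values of 9.13, 7.75 and 8.55 in RAG-/- replicates 1, 2 and 3 and 8.77, 8.92 and 8.69 in WT replicates 1, 2 and 3. RAG-/- replicate 2 was well below the other 5 arrays, which lay within 8.55 to 9.13. The difference was -0.32 (95% interval -1.21 to 0.57, limma).

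Clcn2, a chloride channel opened by hyperpolarization and cell swelling, behaved unlike these. Its log2 values were 6.26, 6.68 and 6.18 in RAG-/- replicates 1, 2 and 3 and 7.84, 7.04 and 6.57 in WT replicates 1, 2 and 3. The groups nearly separated, with only RAG-/- replicate 2 above WT replicate 3, and WT replicate 1 stood highest. As deposited, the intensities were 52.9, 96.3 and 55.3 in RAG-/- arrays and 223, 120 and 82.1 in WT arrays. Clcn2 had the largest difference of the members by description, -0.77 (95% interval -1.69 to 0.15, unadjusted p = 0.0884, adjusted p = 1, limma; two-sided exact permutation p = 0.2; no p under 0.1 is possible with these group sizes). Within pairs 1, 2 and 3 it was -1.58, -0.36 and -0.39. With pair 1 left out the difference was -0.37, and without WT replicate 1 it was -0.43, so pair 1 set much of its size. Larger differences arose without WT replicate 3 (-1.07), without RAG-/- replicate 2 (-0.93) and with array weights (-1.09). Unadjusted p was 0.0345, 0.073 and 0.0199 there (limma), and none passed after adjustment. By title, where the genotypes of pair 1 are exchanged, the difference was 0.28 (95% interval -0.81 to 1.36). Clcn2 overlaps Fam131a in the gene table, and Kcnj13 and Clic3 overlap Gigyf2 and Paxx. The arrays lowest for Clcn2, RAG-/- replicates 1 and 3, were those with Y-linked signal, whose part was not tested.

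**Figure D2:**
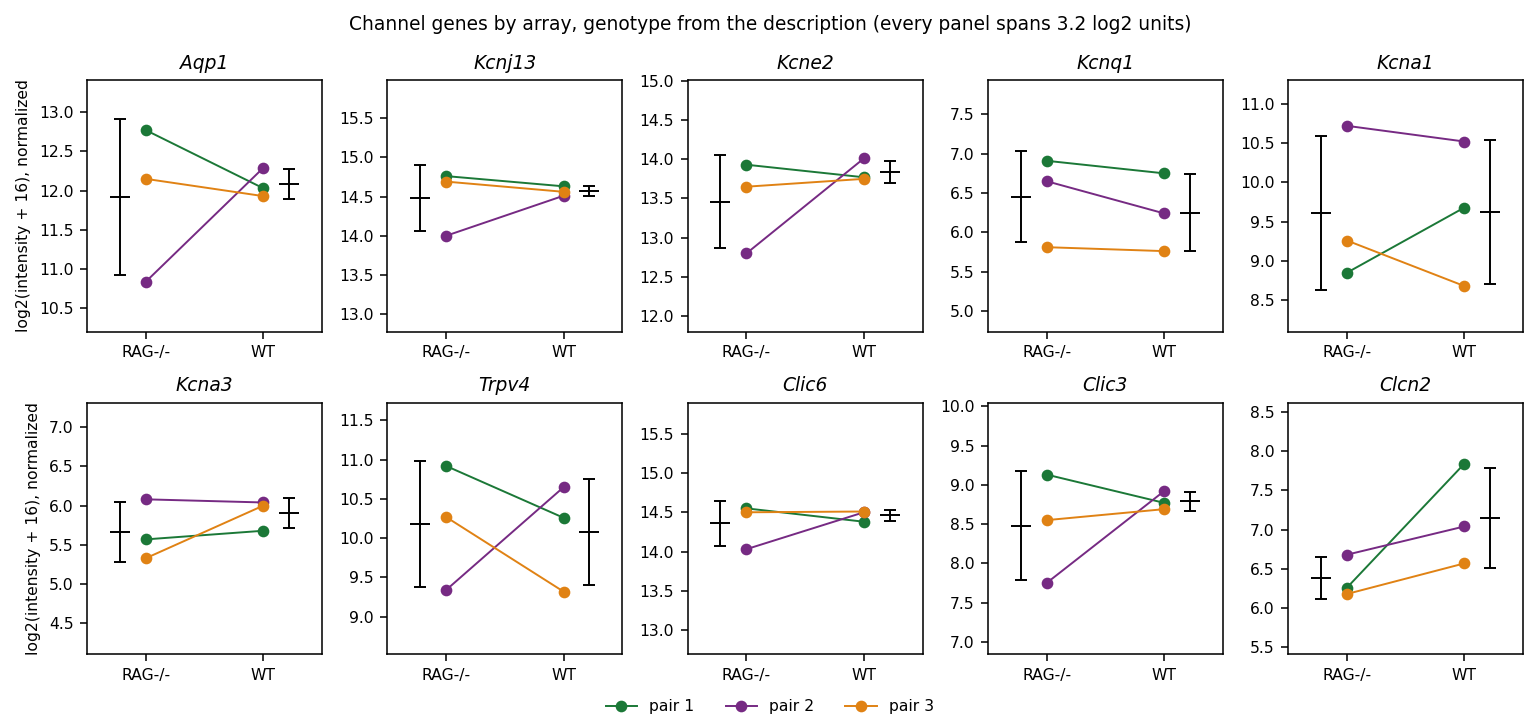
Each panel shows 1 channel gene at its brightest probe set, with log2 values of the RAG-/- (left) and WT (right) arrays, lines joining the arrays of a pair (green pair 1, purple pair 2, orange pair 3), and bars for mean ± SD (n = 3), genotype by description. In Aqp1, Kcnj13, Kcne2, Clic6 and Clic3 the RAG-/- array of pair 2 is the lowest of all 6, whereas in Kcna1 both arrays of pair 2 are the highest.

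Several members varied together across the arrays. RAG-/- replicate 2 was the lowest array for Aqp1, Kcnj13, Kcne2, Clic6 and Clic3, 5 of the 9 genes past the filter, where it was the lowest for 31.2% of 13537 genes. RAG-/- replicate 1 was the highest array for 6 of the 9 (Aqp1, Kcnj13, Kcnq1, Trpv4, Clic6 and Clic3), where it was the highest for 16.3% of all genes. This count holds for the normalized values at the brightest probe sets. As deposited, Kcnj13 and Clic6 were highest in RAG-/- replicate 3, at 30295 and 26235, against 27565 and 23929 in RAG-/- replicate 1. Deposited Kcnq1 was nearly equal in RAG-/- replicates 1 and 2, at 93.6 and 93.5. The other Clic6 probe set was highest in RAG-/- replicate 3 after normalization too. The mean of the 8 epithelium markers, none of them a member, was 13.23, 12.30 and 12.85 in RAG-/- replicates 1, 2 and 3 and 12.97, 13.07 and 12.80 in WT replicates 1, 2 and 3, so that it too was highest in RAG-/- replicate 1 and lowest in RAG-/- replicate 2. The neuron mean (8 of 8 markers) was 10.74, 12.26 and 9.22 in the RAG-/- arrays and 10.70, 11.29 and 9.88 in the WT arrays, and like Kcna1 it was highest in both arrays of pair 2. RAG-/- replicate 2, where Kcna1 peaked, was the highest array for 25.4% of all genes, and WT replicate 3, where Kcnq1, Kcna1 and Trpv4 were lowest, was the lowest for 14.4%. The mean of the pericyte and smooth muscle markers (5 of 5) was 9.32, 8.60 and 8.57 in the RAG-/- arrays and 10.64, 9.04 and 8.68 in the WT arrays, and that of fibroblast markers (6 of 6) was 10.79, 9.54 and 10.55 in the RAG-/- arrays and 11.79, 11.17 and 11.14 in the WT arrays. Both were highest in WT replicate 1, as Clcn2 was, an array highest for 10.6% of all genes. The fibroblast means of the RAG-/- arrays all lay below those of the WT arrays by description (difference -1.08, exact permutation p = 0.1) and overlapped them by title. The oligodendrocyte mean (7 of 7 markers) was 10.50, 12.10 and 11.99 in the RAG-/- arrays and 10.97, 10.68 and 10.04 in the WT arrays. Those groups overlapped by description (difference 0.96) and did not by title (1.28, exact permutation p = 0.1), with 7 of 7 markers higher under either reading. No marker counted here was at 0. The part of other cell types in the values of Kcna1 and Clcn2 was not tested.

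**Figure D3:**
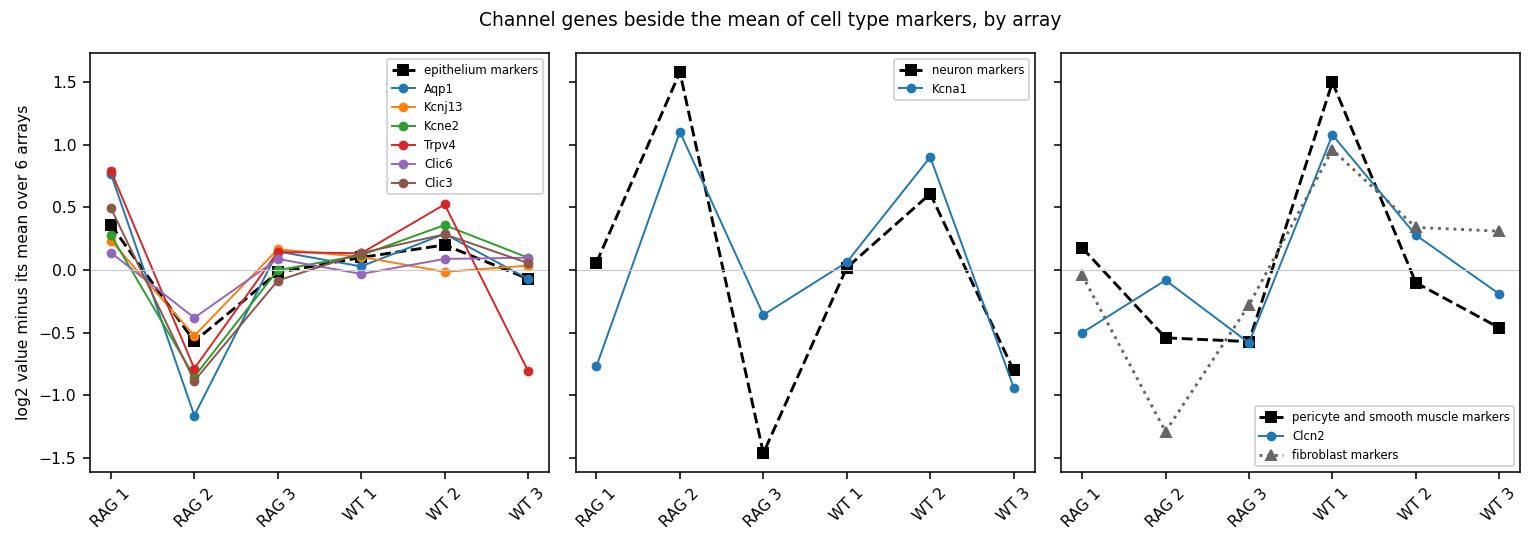
Log2 values minus their own mean over the 6 arrays (y axis), by array (x axis, RAG-/- left of WT), for channel genes (solid lines) and for the mean of cell type markers (dashed or dotted lines). In the left panel the lines dip in RAG-/- replicate 2 and Trpv4 dips again in WT replicate 3, in the middle panel Kcna1 and the neuron markers are highest in both arrays of pair 2, and in the right panel Clcn2 and the markers of pericytes and fibroblasts are highest in WT replicate 1.

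Set against the epithelium markers of the same array, some members varied less and others more. The share of all genes that varied less on this scale was not measured. The SD over the 6 arrays was 0.16 for Kcne2 relative to the marker mean and 0.44 without it, 0.17 and 0.48 for Clic3, 0.15 and 0.27 for Kcnj13, and 0.17 and 0.20 for Clic6. For Aqp1 it was 0.34 and 0.64, and RAG-/- replicate 2 remained the lowest array, at -1.46 relative to the markers, against -0.46 and -0.70 in RAG-/- replicates 1 and 3 and -0.94, -0.78 and -0.87 in WT replicates 1, 2 and 3. For Trpv4 it was 0.42 and 0.66, with WT replicate 3 the lowest. Kcna1, Kcnq1, Kcna3 and Clcn2 varied more on this scale than on their own, at 1.04 and 0.85, 0.55 and 0.49, 0.53 and 0.30, and 0.67 and 0.61. On this scale the genotype differences by description were -0.23 for Kcne2 and -0.62 for Clcn2, with exact permutation p = 0.2 and 0.3, and between -0.16 and 0.36 for the other 8 genes (exact permutation p between 0.4 and 1). By title, the groups of Clic3, 1 of the 10 genes, did not overlap on this scale, against 5.82% of all genes, at a mean of -4.35 in arrays titled RAG and -4.12 in the others (difference -0.23, exact permutation p = 0.1, the smallest possible, over 10 genes examined without correction). This scale was added with the values in view.

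The genes most like each member over the 6 arrays were chosen by the root mean square difference of centred log2 values, and so share its profile by construction. Retsat came closest to Aqp1 (0.07), followed by Il17rc and the cilium gene Spag6l (0.11 each), where Aqp1 itself varied by 0.59 around its mean. Tmem115 was nearest to Kcnj13 (0.03), ahead of Plekha2 and the kinase gene Sgk1 (0.04 each). Arhgap18 (0.06), Yipf4 (0.07) and the carnitine transporter gene Slc22a5 (0.08) were nearest to Kcne2. The nearest to Clic6 were Ahcyl2 (0.03), Cnppd1 and Tpp1 (0.04 each), and those to Clic3 were Vamp8, Ifi30 (0.06 each) and Afg3l1 (0.07). Chst14, Nt5dc2 and Plcd3 were nearest to Trpv4 at 0.15 to 0.18, and Mblac1, Tpgs1 and Atrip to Kcnq1 at 0.06 to 0.09. For Kcna1 they were Kif5c, a neuronal motor protein gene (0.10), Trim67 (0.16) and Doc2b (0.17). For Clcn2 they were Casp12 (0.19), the mesenchymal cadherin gene Cdh11 and Gas1 (0.23 each), the least close of the sets. With 6 arrays in 3 pairs such likeness is a description only.

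RefSeq promoter windows of assembly GRCm38.p6, from 250 bases before to 50 bases after the start site, were at hand for 7 of the 10 genes (8 windows), not for Clic6, Kcnq1 or Kcna1. Those of Kcnj13, Aqp1 and Kcne2 are shown because these are the members at or above the 90.6 percentile on every array for which a window was at hand. Capitals mark matches, on either strand, to the TATA box (TATAAA), the CCAAT box (CCAAT) and the GC box (GGGCGG). Kcne2 has windows for 2 start sites, and which of them these samples use is not known here.
Kcnj13, chr1:87394680-87394979, minus strand: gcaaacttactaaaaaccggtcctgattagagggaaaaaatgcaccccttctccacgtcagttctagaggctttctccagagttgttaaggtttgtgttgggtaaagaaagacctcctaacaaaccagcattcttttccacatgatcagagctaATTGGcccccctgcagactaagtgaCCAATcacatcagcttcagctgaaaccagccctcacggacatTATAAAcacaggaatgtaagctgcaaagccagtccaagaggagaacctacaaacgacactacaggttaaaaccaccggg
Aqp1, chr6:55336049-55336348, plus strand: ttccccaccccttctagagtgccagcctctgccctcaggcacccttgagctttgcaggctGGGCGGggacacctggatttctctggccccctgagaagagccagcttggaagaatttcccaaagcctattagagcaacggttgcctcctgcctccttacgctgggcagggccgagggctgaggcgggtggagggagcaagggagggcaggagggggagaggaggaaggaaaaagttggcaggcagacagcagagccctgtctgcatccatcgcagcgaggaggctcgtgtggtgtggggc
Kcne2, upstream start, chr16:92292139-92292438, plus strand: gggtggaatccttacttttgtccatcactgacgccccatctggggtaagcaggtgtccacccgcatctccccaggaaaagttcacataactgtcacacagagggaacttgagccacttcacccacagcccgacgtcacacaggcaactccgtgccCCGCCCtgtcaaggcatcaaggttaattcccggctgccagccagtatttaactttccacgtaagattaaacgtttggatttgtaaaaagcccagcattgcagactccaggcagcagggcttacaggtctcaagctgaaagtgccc
Kcne2, downstream start, chr16:92295366-92295665, plus strand: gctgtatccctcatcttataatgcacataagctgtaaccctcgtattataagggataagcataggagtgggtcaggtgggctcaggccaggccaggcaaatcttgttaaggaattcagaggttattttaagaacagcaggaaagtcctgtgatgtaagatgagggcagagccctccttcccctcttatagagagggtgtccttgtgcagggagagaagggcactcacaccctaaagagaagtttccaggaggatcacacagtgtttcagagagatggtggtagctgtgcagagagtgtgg
Kcnj13 was the only member window with TATAAA, from -29 to -24 relative to the start site, and it also held CCAAT in both orientations, at -96 to -92 and at -71 to -67. TATAAA occurs in 13.6% of all 32851 windows and CCAAT in 37.4%. Aqp1 held 1 GC box, at -190 to -185, and the upstream window of Kcne2 held 1, at -95 to -90, while the downstream window held none of the motifs. GGGCGG occurred in 6 of the 8 member windows, against 35.7% of all windows, with 3 matches in Trpv4, the last of which ends at +5. TAATCC, the core recognized by OTX-type homeodomain factors, occurred in 0 of the 8 and in 7.06% of all windows. GC content was 46% in Kcnj13, 62.7% in Aqp1, 53% and 48.7% in the upstream and downstream windows of Kcne2, and 73% in Trpv4, with a median of 52.7% over all windows. It was 65.7% in Clcn2, 60.7% in Clic3 and 75% in Kcna3. Every member window with GGGCGG was above that median, and the share of GGGCGG among windows of like GC content was not measured. A match describes the letters of a window and not a site in use.

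Kcne2 and Clic6 lie near each other on chromosome 16, with 5 protein-coding genes between them in the GRCm38.p6 gene table: Smim11, Fam243, Smim34, Kcne1 and Rcan1. Slc5a3, a sodium-coupled inositol carrier that forms a complex with KCNQ1 and KCNE2 in mouse choroid plexus, and the mitochondrial ribosome gene Mrps6 come just before Kcne2, and Runx1 follows Clic6. Slc5a3 (98.8 to 99.4 percentile), Mrps6 (98.9 to 99.6), Kcne2 (97.8 to 99.5) and Clic6 (99.5 to 99.9) were all near the top of brightness on every array. Slc5a3 and Mrps6 overlap in the gene table, and the Mrps6 probe set is of the type marked as shared between transcripts. Rcan1, a calcineurin regulator, lay between 91.1 and 95.8 and Smim11 between 80.6 and 88.6. Kcne1, an accessory subunit of the same family as Kcne2, was dim between them, at the 6.13 to 25.8 percentile at the brighter of its 2 probe sets, and Fam243 ran from the 24.3 to the 56.3 percentile. Smim34 is unnamed on the array here. Of these neighbours, Kcne2 had the lowest difference by title, -0.49, while Rcan1 and Runx1 were at 0.61 and 0.65. By description Kcne2 was at -0.38 and Fam243 at -0.77. None of those tested passed the threshold.

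**Figure D4:**
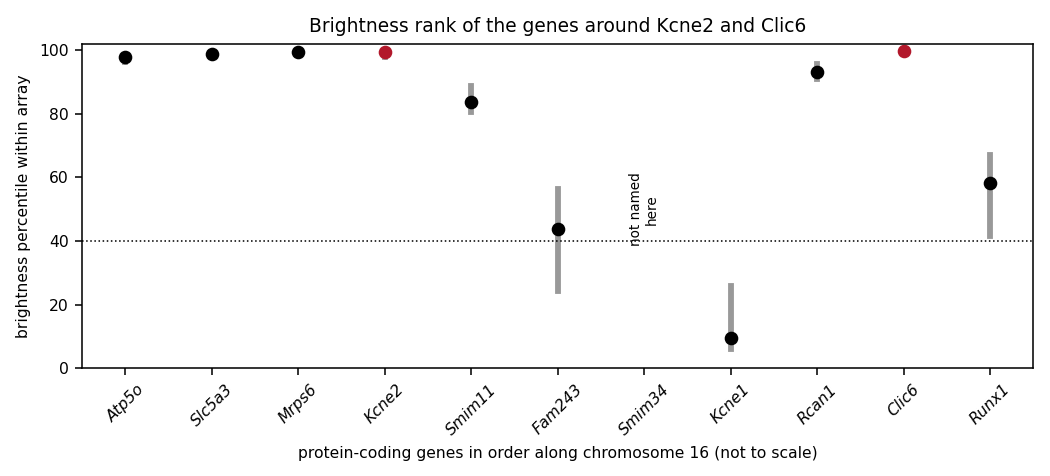
Brightness percentile within each array (y axis; point, median of 6 arrays; bar, lowest to highest array) of the protein-coding genes from Atp5o to Runx1 in their order on chromosome 16 (x axis, not to scale; members in red; dotted line, 40%). Kcne2 and Clic6 lie at or above the 97.8 percentile on every array, with Kcne1 between them at or below the 25.8 percentile.

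No channel gene passed the test of RAG-/- against WT. In the limma fit by description 0 of 9 tested members and 0 of 27022 probe sets passed an adjusted p of 0.05 (0% in either direction), with 192 probe sets, 0.711%, at an unadjusted p under 0.05 and none of the members among them. Every member had an adjusted p of 1. The means were lower in RAG-/- for 7 of 9 members and higher for Kcnq1 and Trpv4, with a median difference of -0.10, where 51.1% of 13537 genes were lower with a median of -0.01. RAG-/- and WT values overlapped in all 9 members, where 3.1% of all genes had groups that did not overlap. All 3 pairs went one way for 2 of 9, Kcnq1 (higher) and Clcn2 (lower), against 21.1% of all genes (9.75% higher and 11.3% lower). The intervals bound what these arrays could show on the normalized scale. By description they allow between -0.50 and 0.29 for Clic6 at its brightest probe set and between -0.79 and 0.46 at its other. For Kcna1 at its brightest probe set they allow between -1.40 and 1.36. Clic6 lies so near the top of the brightness range that quantile normalization leaves little room for differences.

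By title, which turns pair 1, 0 of 9 members and 0 of 27022 probe sets (0%) passed as well, with 332 probe sets, 1.23%, at an unadjusted p under 0.05. The arrays titled RAG had lower means for 6 of 9 members, with a median of -0.21, where 53.9% of all genes were lower with a median of -0.02. The largest in size were Aqp1 at -0.66 (95% interval -1.55 to 0.24), Clic3 at -0.55 (-1.36 to 0.25) and Kcna1 at 0.54 (-0.77 to 1.85), and Kcne2 was at -0.49 (-1.09 to 0.11). All 3 pairs went one way for 4 of 9, lower for Kcne2, Clic6 and Clic3 and higher for Kcna1, against 25.6% of all genes (10.6% higher and 15% lower), and groups overlapped in all 9, against 4.73% of all genes not overlapping. With the pair as a block the smallest unadjusted p of a member's brightest probe set by title was 0.0509 for Kcna1 (adjusted p = 0.926, limma), and 1 probe set in 27022 (0.0037%), of Pttg1, passed. Without RAG-/- replicate 2, Aqp1 by title was at -0.24, Kcne2 at -0.19, Clic3 at -0.25 and Clic6 at -0.08. By description without that array, Aqp1 was at 0.38, Kcnj13 at 0.16, Clic6 at 0.06, Clic3 at 0.04 and Trpv4 at 0.52. Kcnq1 was at 0.11 there, whereas Kcne2 was at -0.05, Kcna1 at -0.57 and Clcn2 at -0.93. In that setting the RAG-/- arrays by description are exactly those with Y-linked signal, so the contribution of either cannot be told apart.

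**Figure D5:**
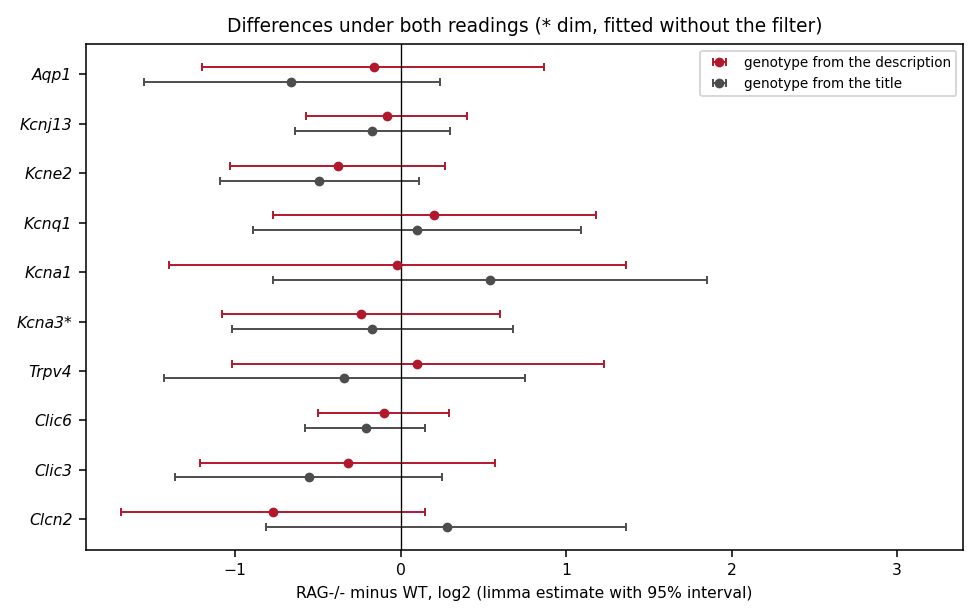
RAG-/- minus WT on the log2 scale (x axis; limma estimate with 95% interval) for the brightest probe set of each channel gene, with the genotype from the description (red) and from the title (grey). All 20 intervals include 0, and Kcna1, Trpv4 and Clcn2 change sign between the readings.

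The lists of family relatives, channel partners and chromosome 16 neighbours held 0 genes past the threshold in any of the 4 limma fits. These fits were by description or title, with or without the pair as a block. Of the 57 genes of these lists past the filter, 1 had groups that did not overlap by description (1.75%, against 3.1% of all genes), Kcna4, higher in RAG-/-. By title there were 5 (8.77%, against 4.73%): Kcna6, Lrrc8a and Rcan1 higher and Trpv6 and Oxsr1 lower in the arrays titled RAG. The mean of the 6 listed chromosome 16 neighbours past the filter was 11.49, 11.49 and 11.60 in RAG-/- arrays and 11.44, 11.33 and 11.44 in WT arrays. These means did not overlap by description (difference 0.12, exact permutation p = 0.1) and overlapped by title (0.09). The list left out the neighbour Fam243, which was at -0.77 by description and -0.02 by title. The separation of the mean therefore holds for the listed genes only. Of 11 other aquaporins only 3 passed the filter, and the brightest was Aqp4, the water channel of astrocytes, whose log2 value was 12.77 in RAG-/- replicate 2 and between 10.92 and 11.78 elsewhere. Aqp11, a water channel of intracellular membranes, differed by 0.36 by description and 0.12 by title. The astrocyte potassium channel gene Kcnj10 was likewise at 11.91 in that array and between 9.43 and 10.07 in the others. The astrocyte mean (6 of 6 markers) was highest there too, at 12.20, between 10.86 and 11.93 elsewhere. Of 14 other inward rectifiers 7 passed the filter, with 4 higher and 3 lower by description and 3 and 4 by title, and the largest difference was that of the vascular subunit Kcnj8, -0.81 by description and -1.04 by title. Kcnj11, a pore subunit of ATP-sensitive channels, was at 0.10 and -0.34.

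Among the other KCNQ and KCNE subunits 3 of 5 with a probe set passed the filter. Kcne4 and Kcnq3 were the brightest, at -0.61 and 0.74 by description and 0.06 and 1.32 by title, and the differences of Kcnq5, 1.35 by description and 1.80 by title, were the largest among the family list genes past the filter. Kcnq5 values were 7.27, 8.0 and 6.36 in RAG-/- replicates 1, 2 and 3 and 7.94, 4.66 and 4.98 in WT replicates 1, 2 and 3, so the groups overlapped by description. Leading the other Shaker-related subunits (7 of 8 past the filter) in brightness were Kcna2, at 10.97 in RAG-/- replicate 2 and 7.79 in RAG-/- replicate 3, and Kcnab1, at 11.06 and 8.65 in those arrays, and both were highest in the arrays of pair 2, as Kcna1 was. Others of the list were not: Kcna5 was at 8.09 in RAG-/- replicate 2 and 4.27 in WT replicate 2, the highest and the lowest of its 6 arrays. Kcna5 had the largest difference of the list, 1.05 by description and 1.43 by title. Kcna4 was at 6.90, 7.26 and 6.72 in RAG-/- replicates 1, 2 and 3 and 5.97, 6.23 and 6.62 in WT replicates 1, 2 and 3 (difference 0.69 by description and 0.07 by title). Both other TRPV genes past the filter, Trpv2 and Trpv6, differed by 0.07 and -0.74 by description and by 0.65 and -0.89 by title.

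Of the other chloride-related genes, Clic4 (mean log2 value 11.75) and Clic1 were the brightest CLIC relatives, at -0.28 and -0.32 by description and 0.96 and -0.31 by title. The intracellular exchangers Clcn3 and Clcn4 led the CLC family, with differences of 0.03 and 0.08. In the list of CLC channels and exchangers, 5 of 6 genes past the filter were higher under either reading (medians 0.14 and 0.20). These 6 include Hepacam, which encodes neither a channel nor an exchanger. The largest differences among them were 0.36 for Clcn6 by description and 0.53 for Clcn5 by title. The lipid scramblase gene Ano6 and the volume-regulated channel subunit gene Lrrc8c were the brightest of the other anion channels, at -0.37 and -0.11, and among the genes of that list past the filter the largest differences were 0.44 for Ttyh3 by description and 0.79 for Ttyh1 by title. Cftr, below the filter, was at -0.48 by description and 0.07 by title. The partners of fluid secretion, 11 of 11 past the filter, had 10 lower by description and 9 by title, with medians of -0.14 and -0.19. They included the cotransporter Slc12a2 at -0.06, the bicarbonate transporters Slc4a10 and Slc4a5 at -0.15 and -0.19, the kinases Stk39 and Wnk1 at -0.14 each, and the calcium-activated potassium channel Kcnn4 at 0.59. The mean of these partners was 11.69 in RAG-/- replicate 2, against 12.18 and 12.34 in RAG-/- replicates 1 and 3 and 12.13 to 12.14 in WT arrays. This was the same low array as for Aqp1, Kcnj13, Kcne2, Clic6 and Clic3.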

How the data were processed

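Choroid plexus epithelium from 6 mouse samples was measured on 1 single-colour array each. The authors deposited 1 linear intensity per probe set and array (45101 probe sets). How they were normalized, and with which software, is not given in the sources used here. Each array's 2% trimmed mean was 500, which points to a per-array scaling before deposit, and values ran down to 0.0791. Precision is limited by the number of arrays.

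From these, 64 control probe sets were left out, log2(intensity + 16) was taken, arrays were quantile normalized and the lowest 40% by mean were left out, leaving 27022. This scale understates changes of dim probe sets. The brightest probe set stood for a gene. Symbols came from the platform annotation (1 symbol for 34945 probe sets, several for 932, 9160 unnamed here), and 34741 matched the GRCm38.p6 gene table by gene number. Differences were tested with limma 3.58.1 (lmFit, eBayes with trend, two-sided) in R 4.3.3, with Benjamini-Hochberg adjustment over all probe sets. Exact permutation tests of 3 against 3 arrays cannot go below p = 0.1. Scripts were tested on simulated data.

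Samples sharing a code in their titles deviated together from their genotype means, with correlations of 0.29, 0.39 and 0.58 within the 3 pairs. Correlations across pairs were -0.42 to 0.01. Deviations from a group's own mean cancel out, so positive values within pairs force negative ones across them. The codes were taken to pair the samples, and fits with the pair as a block were added. Members, gene lists and tests were chosen with earlier results of these data known. All members were named, with the 3 genes nearest to each tested one, and of each list the genes past the threshold or the 2 brightest and those with the largest difference; Fam243 and other list genes were added after their values were seen.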

Additional observations from a re-analysis of the deposited data

How the results depend on the processing

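Under every alternative run, 0 channel genes passed the threshold. The number of probe sets past it was 0 in all but the following settings: it was 1 (Pttg1) by title with the replicate block for the pair, and leaving out single arrays gave between 0 and 4. The 4, Xist and 3 unnamed probe sets, arose without RAG-/- replicate 2. The block changed no other call and left each estimate as it was. By title the sign turned for Kcna1 (0.54), Trpv4 (-0.34) and Clcn2 (0.28), with the block or without. With array weights it turned for Aqp1 (0.29), Kcnj13 (0.05), Clic6 (0.03) and Clic3 (0.01). With pair 1 left out it turned for Kcna1 (0.39) and Trpv4 (-0.18), and with a common median for Kcna1 (0.01). Leaving out single arrays gave -0.59 to 0.38 for Aqp1, -0.22 to 0.16 for Kcnj13, -0.62 to -0.05 for Kcne2, -0.04 to 0.53 for Kcnq1, -0.57 to 0.43 for Kcna1, -0.27 to 0.52 for Trpv4, -0.20 to 0.06 for Clic6, -0.64 to 0.04 for Clic3 and -1.07 to -0.43 for Clcn2. Among these, Kcna1 was at 0.36, 0.16, 0.01 and 0.43 without RAG-/- replicate 1 or 3 or WT replicate 1 or 2, Kcnq1 at -0.02 without RAG-/- replicate 1, and Trpv4 at -0.27 without RAG-/- replicate 1 or WT replicate 3. Chosen after seeing the data were the reading by title without RAG-/- replicate 2 (Kcnj13 0.05, Kcnq1 -0.02, Kcna1 0.12, Trpv4 -0.03, Clcn2 0.39) and levels relative to the epithelium markers (Kcnj13 0.07, Kcna1 0.14, Clic6 0.05). Kcna3 was fitted without the filter only. The cause of these changes was not tested. As deposited, and with pseudocounts of 1 or 64, the 9 tested members kept their direction. No background level or detection call was at hand, so what brightness limits for a dim probe set such as that of Kcna3 was not measured.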
